A study of Bos taurus with 96 samples.

Results

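Longissimus dorsi muscle (LD), the large back muscle that gives the rib and loin cuts, was compared between 2 British beef breeds, Hereford and Angus. The comparison took the 8 LD arrays labelled Hereford and Pasture_Feeding against the 8 LD arrays labelled Angus and Pasture_Feeding, which are 16 of the 96 arrays of the series and 16 of its 36 LD arrays. Each array is 1 total RNA sample, labelled with Cy3 and read alone on a bovine Agilent 4x44K array, of which a slide carries 4. Both groups were steers that had only pasture just after weaning. The labels give 259 days in a feedlot for every sample, so the word pasture names an early period and not the diet at slaughter. The 12 LD arrays labelled Supplemental_Feeding came from animals that had extra feed in that same early period, 4 of them Angus, 4 Hereford and 4 Wagyu x Angus. The muscle was sampled with its intramuscular fat in place, so each sample holds myofibres, fat cells, vessels and connective tissue together. The methods of the study draw the LD samples from 2 slaughter groups, one of them killed earlier. The labels do not say which array belongs to which, so animals of one label may differ in age and time on feed whatever the labelled days. They also do not say that arrays of one label are separate animals, so p-values measure the spread between these samples.

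Intramuscular fat cells make fatty acids, join them to glycerol and store them in droplets, and their transcripts form a small share of the RNA of whole muscle. Myofibres bring the contractile proteins and most of the mitochondria, and also express selenoproteins, a family of proteins that carry selenium as selenocysteine and mostly reduce peroxides or keep other proteins in their reduced form. In bulk tissue, fewer cells of a type and less RNA per cell cannot be told apart. A level below is log2 of the processed signal of a probe minus the 75th percentile of its array, so that 0 is the 75th percentile, and a difference is the mean of the arrays labelled Hereford minus the mean of those labelled Angus, on the log2 scale, with its standard error (SE). A probe was called at an adjusted p under 0.05 in limma.

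Labels and slides bear on every value that follows. The 8 arrays labelled Angus lay on slides 2 and 23, with 4 on each, and the 8 labelled Hereford on slides 13 and 14, with 4 in all, and on slide 24, with 4. No slide held both breeds, so slide and breed cannot be told apart on any one slide. Slaughter group cannot be told apart from slide either. The labels were set against 105 probes that differed between Hereford and Angus over the 5 fat depots of the series (0.307% of 34227 probes, 20 arrays against 20, depot as a covariate), where slides mixed the breeds. Arrays of different depots share steers, so the p-values of that choice are too small. Of these 105 probes, 81 kept the sign of fat in slides 13 and 14 minus slide 2, and 66 did so between the supplement arrays of both breeds. In slide 24 minus slide 23 only 25 kept it. Among the 27 probes with a difference of at least 1 in fat the counts were 24, 22 and 1. Averaged over the 105 probes with the sign of fat, the LD difference was 0.68 for slides 13 and 14 minus slide 2 and -0.66 for slide 24 minus slide 23.

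ULBP3, a ligand of the natural killer cell receptor NKG2D, shows the pattern in one gene. It was higher in Hereford fat by 2.37. In LD its mean level was -4.01 on slide 2 (labelled Angus) and -0.51 on slides 13 and 14 (labelled Hereford), but -1.16 on slide 23 (labelled Angus) and -4.11 on slide 24 (labelled Hereford). SQSTM1, an autophagy receptor, was lower in Hereford fat by 1.14 on the log2 scale, with LD means of 5.40 on slide 2 and 4.59 on slides 13 and 14 against 4.29 on slide 23 and 5.33 on slide 24. Slides 23 and 24 thus went against their labels in these probes. Whether the labels of these 8 arrays were exchanged was not tested. With the labels of slides 23 and 24 exchanged, a gene that sets slides 2 and 23 apart from slides 13, 14 and 24, as the genes with the highest and lowest differences do, would not separate the breeds, so no difference below can be read as one of breed alone. The arrays were kept in the groups their labels give and are called arrays labelled Hereford or labelled Angus throughout. Values are for all 16 arrays unless slides are named, and those without slides 23 and 24, which is slides 13 and 14 minus slide 2, and for slide 24 minus slide 23 are given where they differ most or carry a result.

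**Figure D1:**
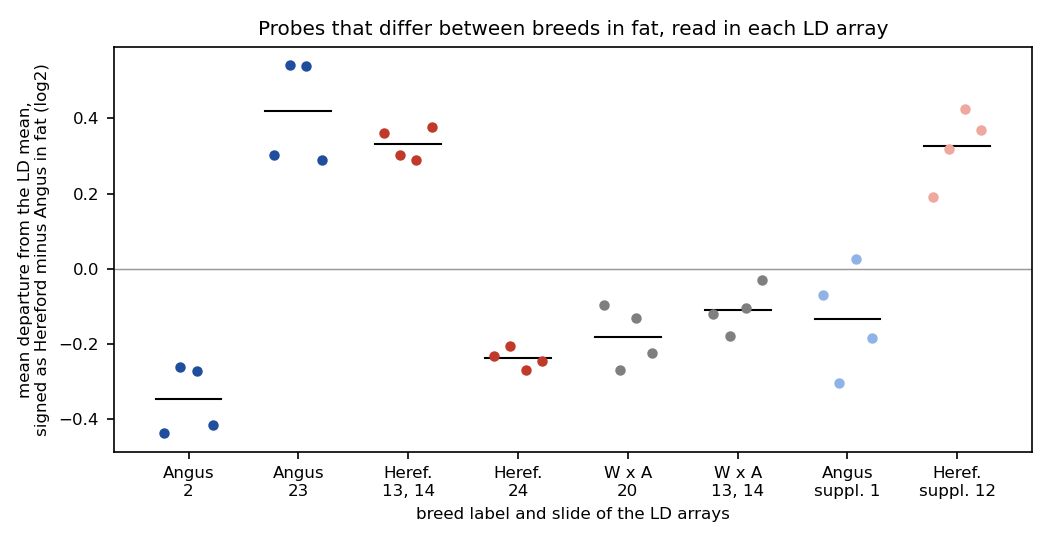
Mean departure of 105 probes from their mean over 36 LD arrays, signed so that Hereford minus Angus in fat is positive (log2), for each LD array by breed label and slide number, with the mean of each set as a line. Arrays labelled Angus lie between -0.44 and -0.26 on slide 2 and between 0.29 and 0.54 on slide 23, and arrays labelled Hereford lie between 0.29 and 0.38 on slides 13 and 14 and between -0.27 and -0.21 on slide 24.

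Over the 16 arrays, 3104 of 34227 probes were called (9.07%), 1340 higher (3.92%) and 1764 lower (5.15%) in the arrays labelled Hereford. Higher calls were instead the more frequent with the series matrix values (1566 against 1262) and with all non-control probes (3347 against 2121). Only 573 probes (1.67%) had no overlap between the 8 and 8 arrays, and 563 of these were called. Slide was also taken as a random block, with an estimated correlation within a slide of 0.48, the same for all probes. With this block 21 probes were called (0.0614%), 9 higher (0.0263%) and 12 lower (0.0351%), against 2818 at an unadjusted p under 0.05. The label varied only between slides, Angus on slides 2 and 23 and Hereford on slides 13, 14 and 24. All p-values with the block therefore rest on few slides and can be too small, so passing does not separate label from slide. Slides of one label differed as widely as slides of different labels. Slide 23 minus slide 2, both labelled Angus, gave 11335 called probes (33.1%), and slide 24 minus slides 13 and 14, both labelled Hereford, gave 8360 (24.4%). Slide 24 minus slide 2, labelled differently but scanned on one day, gave 8056 (23.5%). Slides 13 and 14 minus slide 2 gave 12230 (35.7%), 15.9% higher and 19.8% lower, and slide 24 minus slide 23 gave 9586 (28%), 15% higher and 13% lower. These last contrasts share no array. Of the 4327 probes called in both, which are 35.4% and 45.1% of their lists, 892 had the same sign and 3435 the opposite sign. Over all 34227 probes, which are not independent and share the slide in each contrast, the differences had a Pearson r of -0.18. The first principal component of the 16 arrays held 26.0% of the variance and set slides 2 and 24 against slides 23, 13 and 14. The second held 18.2% and set the 8 arrays labelled Angus against the 8 labelled Hereford. The arrays labelled Angus were also brighter, with a 75th percentile of 9.23 to 9.59 against 8.54 to 9.35 (log2 intensity) and 87.1 to 96.1% of probes well above background against 84.5 to 92.8%, and the part of these gaps in the results was not tested.

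The genes with the highest and lowest differences are grouped here by what they are known to do, a grouping made after they were ranked. Lower in the arrays labelled Hereford were 2 selenoproteins (SELENOW and GPX1), 7 genes of fat cells and lipid metabolism (THRSP, ACSM1, CIDEC, FABP4, TRARG1, DGAT2 and ELOVL6), and S100G, GSTT2 and TF. Higher were the clock genes PER2 and DBP, the imprinted genes H19 and MEST, and NREP, GATM, CBLN4, TLE1, PHACTR3, MEGF10, COL1A1 and PCDH12. These 24 genes are the 12 highest and 12 lowest among 113 and 198 genes that were called, did not overlap between the groups and were above background on all arrays of at least 1 label. Because the rule asks for no overlap in these 16 arrays, their folds describe the extremes of the comparison. Their sign was the same in slides 13 and 14 minus slide 2 and in slide 24 minus slide 23, as the absence of overlap requires, and 5 of the 24 passed with slide as a random block (SELENOW, GPX1, DBP, NREP and PHACTR3). A further 56 probes were chosen as members of gene lists that passed. All kept their sign in both slide contrasts, as 3097 of all 3104 called probes did, since the contrasts are parts of the same 16 arrays. Of the 56, 45 passed in slides 13 and 14 minus slide 2 and 22 in slide 24 minus slide 23, where 35.7% and 28% of all probes passed. The 56 were chosen for passing over these same arrays, so a larger share is built into both counts. By the brightest probe of each gene, calls in the lists were kept with slide as a random block for SELENOW, GPX1 and SELENOP only.

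**Figure D2:**
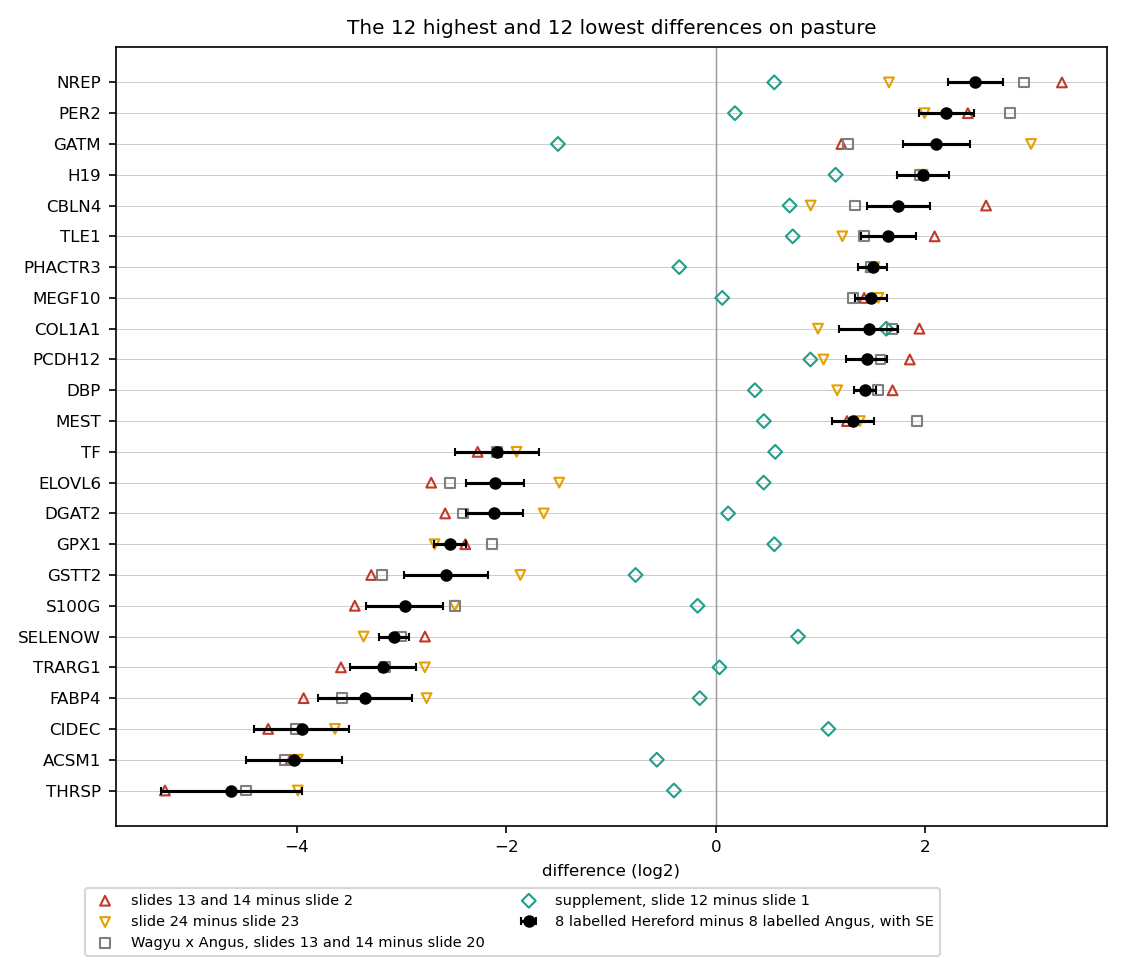
Differences (log2) of the 12 highest and 12 lowest genes of the pasture comparison, with black points and SE bars for the 8 arrays labelled Hereford minus the 8 labelled Angus, and open symbols for 4 further contrasts. All slide contrasts on pasture lie on the same side of 0 as the black points, whereas the supplement contrast (diamonds) lies near or across 0 for most genes, from -1.51 for GATM to 1.63 for COL1A1.

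SELENOW and GPX1, both selenoproteins, were the named genes with the lowest adjusted p over the 16 arrays. SELENOW, a small thiol-reducing selenoprotein abundant in muscle, had levels of 1.17, 1.60 and 2.22 (lowest, median, highest) in the arrays labelled Hereford and of 4.42, 4.78 and 5.21 in those labelled Angus. The highest of the first group lay more than 2 log2 units below the lowest of the second. The difference was -3.07 (SE 0.14, n = 8 and 8), or 8.40-fold lower. Its limma adjusted p was 6.52e-09 over the 16 arrays and 2.87e-05 with slide as a random block. Here and below, p-values with the block rest on the few slides of each label and can be too small. Between slides it was -2.78 for slides 13 and 14 minus slide 2 and -3.36 for slide 24 minus slide 23. GPX1, the cytosolic glutathione peroxidase that reduces hydrogen peroxide, ran from 0.29 through 1.04 to 1.21 in the arrays labelled Hereford and from 2.98 through 3.46 to 3.84 in those labelled Angus. Here too the groups stood apart, by -2.54 (SE 0.16, adjusted p = 2.31e-07, and 0.00143 with the block), and the other GPX1 probe gave -2.43. SELENOP, the plasma protein that carries selenium to tissues, had levels of 2.55, 3.13 and 3.43 against 4.25, 4.48 and 4.88. Its difference was -1.44 (SE 0.13, adjusted p = 1.01e-05, and 0.0307 with the block), and 6 of its 7 probes were called lower.

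A list of 25 selenoprotein genes was written after these values were seen, so its counts are a description. Of the 21 members on the array, 7 were called lower and 0 higher by their brightest probe, where 6.67% of all 10653 named genes were called lower and 3.81% higher (10.5% in all). Besides the genes above they were GPX3, the extracellular glutathione peroxidase (-0.75, SE 0.13), SELENOH, a nuclear protein (-0.90, SE 0.16), and the endoplasmic reticulum proteins SELENOF (-0.51, SE 0.09) and SELENOK (-0.54, SE 0.10). The other 14 did not pass. Among these were GPX4, which protects membrane lipids from peroxidation (0.13, SE 0.08), the thioredoxin reductases TXNRD1 (0.07, SE 0.09, at its brighter probe) and TXNRD2 (-0.19, SE 0.08), and MSRB1, a methionine sulphoxide reductase (-0.39, SE 0.15). The other TXNRD1 probe gave -1.51 (SE 0.53, adjusted p = 0.0847), with -2.89 for slides 13 and 14 minus slide 2 and -0.13 for slide 24 minus slide 23. By brightest probe, differences within the family ran from -3.07 to 0.23. The median over the 21 members was -0.29, against -0.003 over all probes, and it was -0.29 for slides 13 and 14 minus slide 2 and -0.34 for slide 24 minus slide 23. With supplement the median was 0.13.

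**Figure D3:**
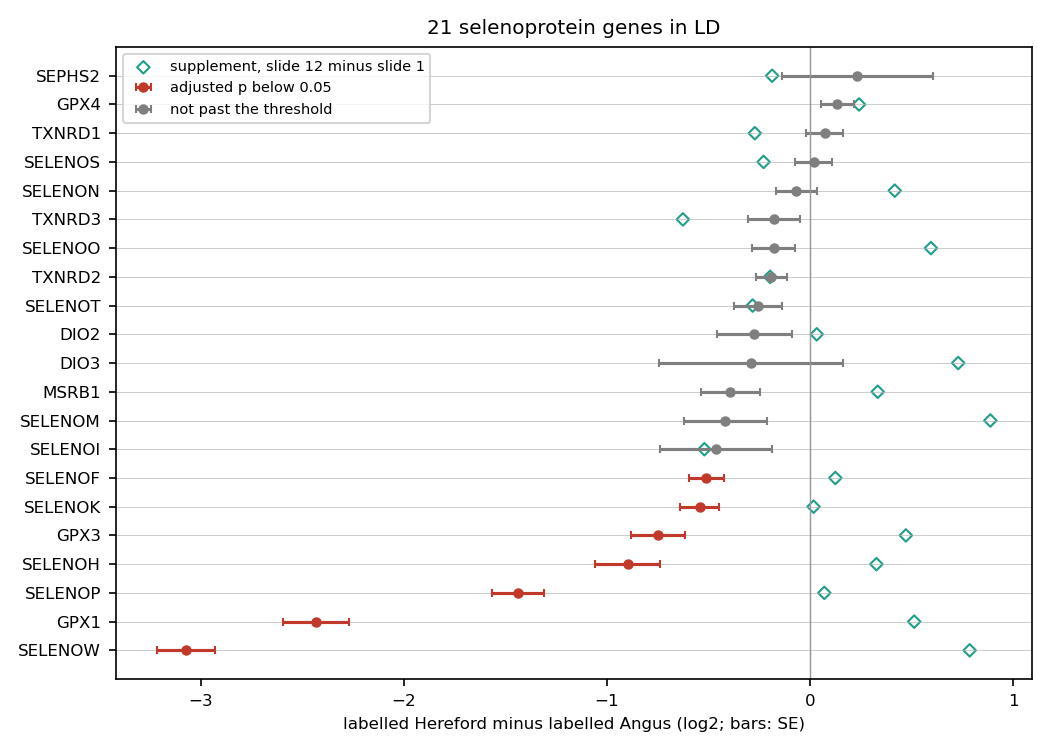
Difference between arrays labelled Hereford and labelled Angus on pasture (log2, 8 and 8 arrays, bars are SE) for 21 selenoprotein genes, with those past the threshold in red, and the same contrast in the supplement arrays as open diamonds. SELENOW, GPX1 and SELENOP lie at -3.07, -2.43 (the brighter of 2 GPX1 probes) and -1.44, and the diamonds of these 3 genes lie at 0.79, 0.51 and 0.07.

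Of the 12 lowest genes, 6 were members of the fat cell and lipid lists (THRSP, CIDEC, FABP4, TRARG1, DGAT2 and ELOVL6). FABP4, which carries fatty acids inside fat cells, had levels of -0.52, 0.88 and 3.09 in the arrays labelled Hereford and of 3.13, 4.53 and 5.17 in those labelled Angus. The groups met without crossing, and the spread within each covered more than 2 log2 units. The difference was -3.35 (SE 0.45, adjusted p = 0.000438), or 10.2-fold lower. CIDEC, which enlarges lipid droplets, had 2 probes at -3.96 (SE 0.45) and -3.79 (SE 0.49), the first of them above background on 5 of the 8 arrays labelled Hereford. TRARG1, which guides the insulin-responsive glucose transporter in fat cells, ran from -2.11 to -0.13 against 0.45 to 2.52, a difference of -3.18 (SE 0.32, adjusted p = 3.68e-05). With slide as a random block FABP4, CIDEC and TRARG1 did not pass (adjusted p = 0.219, 0.166 and 0.0806).

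THRSP, a regulator of lipogenesis, differed by -4.63 (SE 0.68, adjusted p = 0.000696) at the probe chosen by the rule. Its 4 probes, all called, ranged from -4.63 to -1.74, and the probe at -1.74 was the one above background on all 16 arrays. At the first probe the levels were -6.80, -5.61 and -1.68 in the arrays labelled Hereford and -1.60, -0.40 and 0.94 in those labelled Angus, and this probe was above background on 3 of the first 8 arrays and on all 8 of the second. One array on slide 24 lay next to the lower end of the arrays labelled Angus. ACSM1, which activates medium-chain fatty acids, differed by -4.03 (SE 0.45) at a probe above background on 4 of the 8 arrays labelled Hereford, and by -3.36 and -3.29 at its other probes, which were above background on all 16 arrays. ELOVL6, which lengthens C16 fatty acids, and DGAT2, which adds the last acyl chain of triacylglycerol, both differed by -2.11 (SE 0.28 and 0.27), and all 4 ELOVL6 and all 3 DGAT2 probes were called.

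The adipocyte list, written as 15 markers, had 9 members lower and 0 higher, beside 6.67% and 3.81% of all named genes, with a median of -0.84. With slide as a random block 0 of the 9 passed (adjusted p = 0.0806 to 0.553). The 9 were ADIPOQ (-2.28), PLIN1 (-2.89), FABP4, CIDEC, CIDEA (-0.93), LPL (-0.87), PPARG (-0.67), CEBPA (-0.84) and TRARG1, which span a secreted hormone, droplet coats, lipid uptake and the transcription factors of the fat cell. Of the remaining 6, LIPE, the hormone-sensitive lipase, was at -0.73 (adjusted p = 0.0584), CD36, a fatty acid carrier also found on myofibres and vessels, at -0.30 and CFD, an adipokine, at 0.02. The median was -1.06 for slides 13 and 14 minus slide 2 and -0.84 for slide 24 minus slide 23, where 8 of the 15 were lower (13% of all probes) and 0 higher, and PPARG gave -1.21 and -0.13 there. Log2 of the summed level of the 15 markers ran from 4.81 to 5.60 in the arrays labelled Hereford and from 5.78 to 6.99 in those labelled Angus. No marker was below background on all 16 arrays. This summed level did not overlap between the labels, and its part in the differences of the lipid genes was not tested.

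Fatty acid synthesis and desaturation had 6 of 15 members lower and 1 higher. With slide as a random block 0 of these 7 passed (adjusted p = 0.149 to 0.628). List counts over the 16 arrays are to be read against 6.67% of all named genes lower and 3.81% higher, those in slides 13 and 14 minus slide 2 against 19.8% of all probes lower and 15.9% higher, and those in slide 24 minus slide 23 against 13% lower and 15% higher. Lower were FASN, the synthase itself (-1.52, SE 0.24, 3 of 4 probes called), SCD, the stearoyl-CoA desaturase (-1.10), ELOVL6, THRSP, and the NADPH-producing enzymes ME1 (-0.37) and PGD (-0.46). FADS2, which makes long polyunsaturated fatty acids, was higher by 0.78. ACACA and ACLY, the enzymes upstream of FASN, gave -0.02 and -0.24 and did not pass. In triacylglycerol synthesis and lipid droplets, 3 of 13 members were lower (DGAT2, LPIN1 at -0.80 and G0S2 at -1.40) and MOGAT1, an acyltransferase that acts on monoacylglycerol, was higher by 1.20 (SE 0.25). In slides 13 and 14 minus slide 2, 8 of the 13 were lower with a median of -0.99, and in slide 24 minus slide 23 only 1, with a median of -0.34. G0S2, an inhibitor of triacylglycerol breakdown, gave -2.39 in slides 13 and 14 minus slide 2 but -0.42 in slide 24 minus slide 23, where it did not pass (adjusted p = 0.359), and LPIN1, a phosphatidate phosphatase, gave -1.09 and -0.51 (adjusted p = 0.385). GPD1, the dehydrogenase that supplies glycerol phosphate, gave 0.13 and AGPAT2 -0.37, and neither passed. Fatty acid oxidation had 3 of 22 members lower, CPT2, which releases acyl-CoA inside mitochondria (-0.53), HADH (-0.32) and UCP3, a mitochondrial carrier of muscle (-0.82), and 0 higher. None of the 46 respiratory chain genes passed by its brightest probe, with differences from -0.32 to 0.06.

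**Figure D4:**
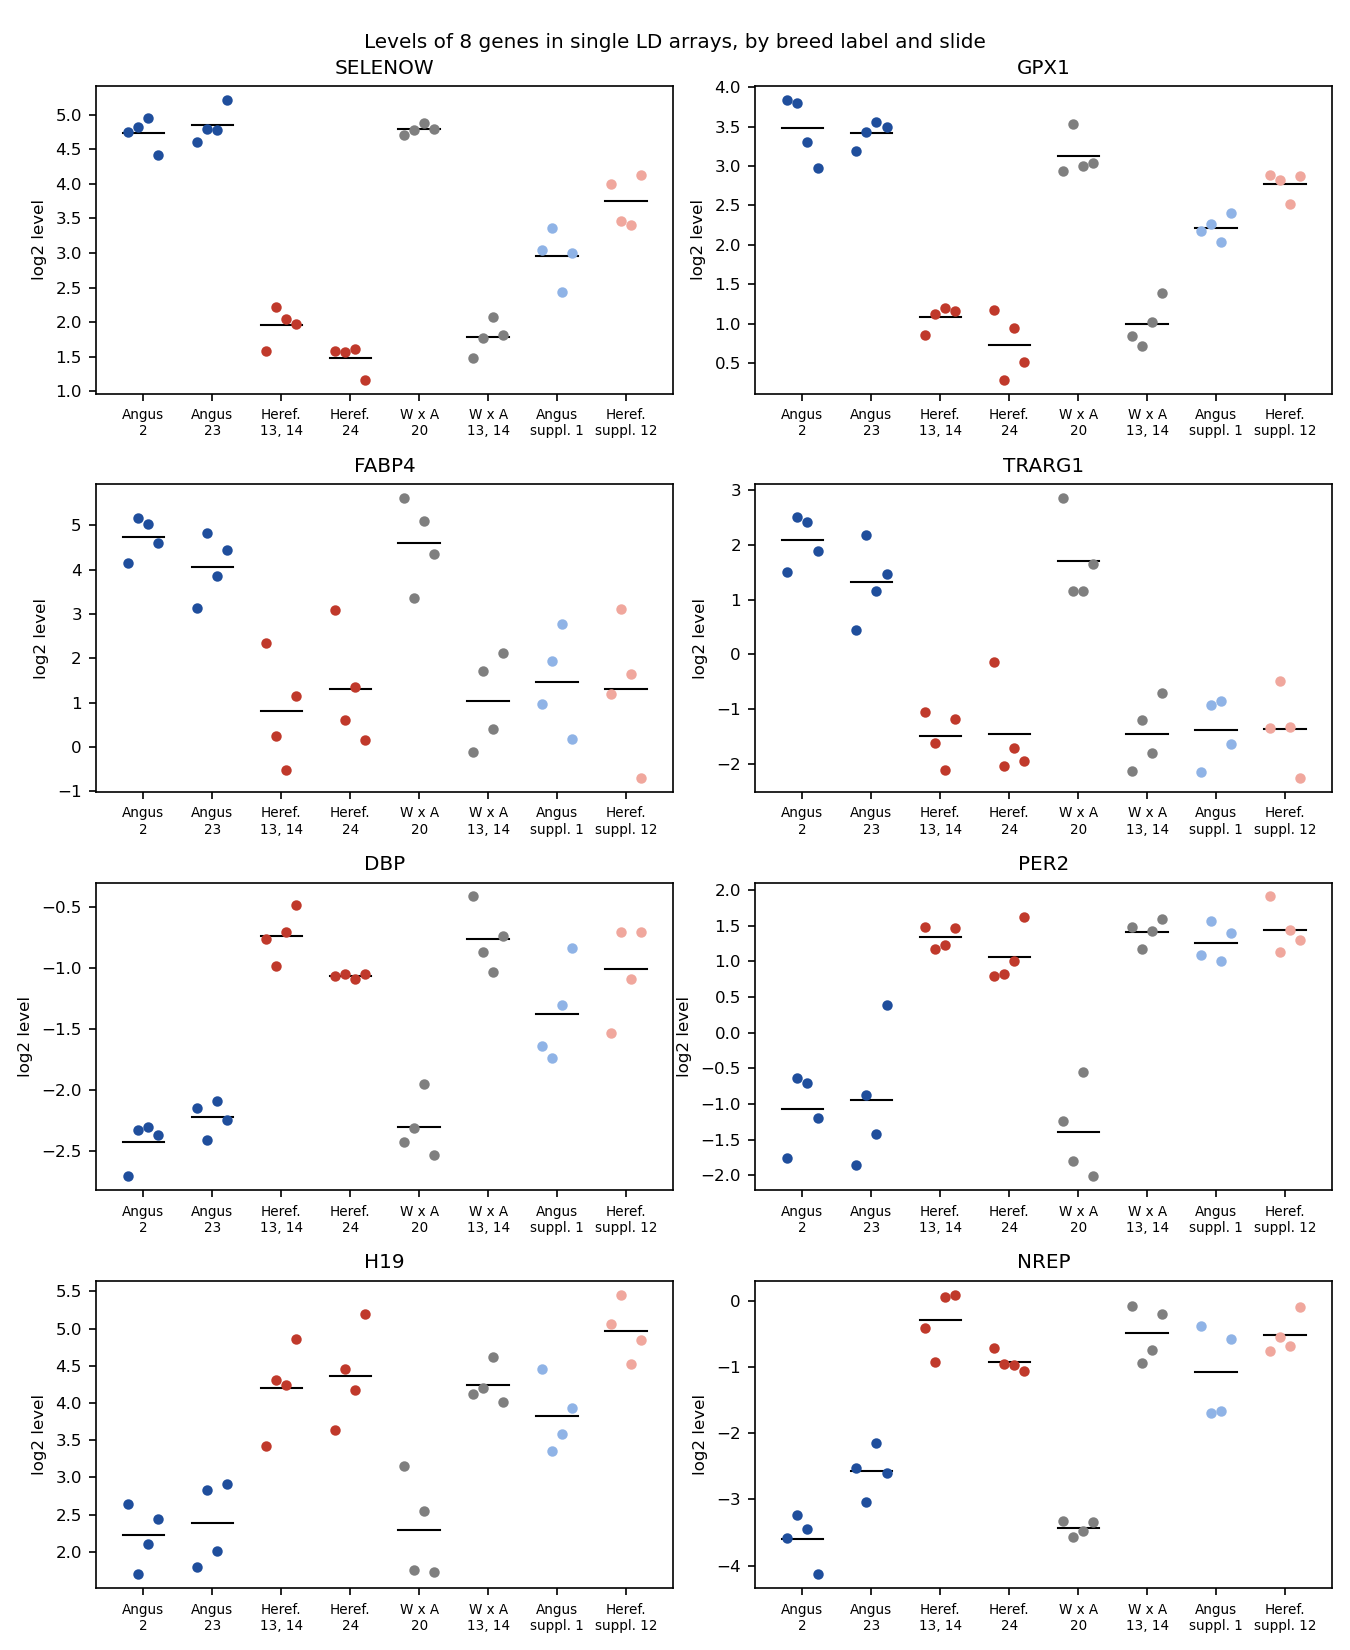
Level (log2 relative to the 75th percentile of the array) of SELENOW, GPX1, FABP4, TRARG1, DBP, PER2, H19 and NREP in each LD array by breed label and slide number, with suppl. for the supplement arrays, W x A for Wagyu x Angus and a line at each mean. On pasture the arrays of slides 2, 23 and 20 lie together and those of slides 13, 14 and 24 lie together in each panel, also for Wagyu x Angus, as for SELENOW with 4.42 to 5.21 against 1.17 to 2.22.

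The LD arrays of Wagyu x Angus on pasture lay on slides 13 and 14, with 4 arrays beside those labelled Hereford, and on slide 20, with 4. They split in the same way. SELENOW ran from 1.48 to 2.08 in the 4 arrays on slides 13 and 14 and from 4.71 to 4.88 in the 4 on slide 20. FABP4 ran from -0.12 to 2.13 and from 3.36 to 5.62 in these sets, and PER2 from 1.17 to 1.59 and from -2.01 to -0.55. For all 24 genes the mean of the Wagyu x Angus arrays on slides 13 and 14 was nearer to the arrays labelled Hereford and the mean of those on slide 20 nearer to the arrays labelled Angus. Of the 563 probes that were called without overlap, 550 had the same sign in Wagyu x Angus, slides 13 and 14 minus slide 20, a contrast within 1 breed label. Log2 of the summed adipocyte markers was 4.80 to 5.31 on slides 13 and 14 and 6.28 to 7.23 on slide 20. The differences above were therefore also found between slides of a single breed label.

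Clock genes moved in both directions. PER2, a repressor of the circadian clock, had levels of 0.79, 1.20 and 1.62 in the arrays labelled Hereford and of -1.85, -1.03 and 0.39 in those labelled Angus. The difference was 2.20 (SE 0.26, adjusted p = 0.000175, and 0.172 with the block), and all 3 PER2 probes were called. DBP, an output transcription factor of the clock, had levels of -1.08, -1.01 and -0.48 against -2.70, -2.31 and -2.09 at one probe, a difference of 1.42 (SE 0.11, adjusted p = 1.71e-06, and 0.0012 with the block). The other, brighter DBP probe gave 0.00, so the probes of this gene disagree. NFIL3, a repressor that opposes DBP, was lower by 1.33 in the arrays labelled Hereford, as a difference of -1.33 (SE 0.16, 3 of 3 probes called), and ARNTL, the activator of the core loop, gave -0.68 (SE 0.19). BHLHE40 and BHLHE41, clock-controlled repressors, were higher by 1.14 (SE 0.18) and 0.53 (SE 0.14), the latter by 0.93 in slides 13 and 14 minus slide 2 and with 0.13 in slide 24 minus slide 23. Of 12 clock genes measured, 3 were higher and 2 lower by their brightest probe, and CRY1, NR1D1 and RORA did not pass (-0.08, 0.38 and -0.21).

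H19, an imprinted noncoding RNA of the IGF2 locus, had levels of 3.42, 4.27 and 5.20 in the arrays labelled Hereford and of 1.70, 2.28 and 2.91 in those labelled Angus. The groups did not overlap, and the difference was 1.98 (SE 0.25, adjusted p = 0.000276, and 0.172 with the block). It was 1.98 in both slide contrasts at this probe. The 3 H19 probes ranged from 1.18 to 1.98, with 2 called. IGF2, the growth factor beside it, was higher by 0.60 (SE 0.14) with 8 of 10 probes called (0.91 in slides 13 and 14 minus slide 2 and 0.29 in slide 24 minus slide 23), and IGF1 by 0.57 (SE 0.09). MEST, another imprinted gene, was higher by 1.31 (SE 0.20) at one probe, but its 4 probes ranged from -0.02 to 1.31, with 3 called. DLK1, an imprinted gene of muscle growth, gave -0.11 and did not pass. In the list of muscle growth control 4 of 24 members were higher (IGF1, IGF2, and the muscle transcription factors MYOG at 0.69 and MEF2C at 0.74) and 0 lower, with a median of 0.20. In slides 13 and 14 minus slide 2, 9 were higher and 4 lower, and in slide 24 minus slide 23, 2 were higher and 3 lower, with the 4 lower and both later counts at or below the shares of all probes called there. The 3 probes of IGF1 ranged from -0.03 to 0.67.

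NREP, a small protein of regenerating nerve and of contractile fibroblasts, had levels of -1.05, -0.81 and 0.09 in the arrays labelled Hereford and of -4.13, -3.14 and -2.15 in those labelled Angus. It differed by 2.48 (SE 0.27, adjusted p = 6.92e-05, and 0.00965 with the block), and its other probe gave 2.32. GATM, which makes the precursor of creatine, had levels of -4.24, -3.10 and -2.13 against -5.73, -5.29 and -4.47. Its difference of 2.11 (SE 0.32, adjusted p = 0.00097) was 1.20 for slides 13 and 14 minus slide 2 and 3.01 for slide 24 minus slide 23. Also higher were TLE1, a transcriptional corepressor (1.65, SE 0.26), CBLN4, a secreted synaptic organiser (1.74, SE 0.30), PHACTR3, a phosphatase and actin regulator (1.50, SE 0.13), MEGF10, a receptor of muscle satellite cells (1.49, SE 0.15), and PCDH12, a protocadherin of endothelium (1.44, SE 0.20). PHACTR3 also passed with the block (adjusted p = 0.0307).

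Calls among matrix genes went in both directions. COL1A1, a chain of type I collagen, differed by 1.46 at the probe chosen by the rule and by 1.01 at its brightest probe, but its 5 probes ranged from -0.67 to 1.46, with 3 called higher and 1 lower. COL1A2, the partner chain (0.68), and COL15A1, a basement membrane collagen (0.75), were higher and FBLN1, an elastic fibre protein (-0.61), was lower, which makes 3 higher and 1 lower of 29, beside 3.81% and 6.67% of all named genes. The second probes of COL15A1 and FBLN1 gave 0.05 and -0.14 and did not pass. Among proteases and inhibitors, PLAU, the urokinase, was higher by 0.60, and ADAMTS4, an aggrecanase (-1.38), TIMP2, an inhibitor of matrix metalloproteases (-0.50), and PRSS23 (-1.08) were lower, of 17. ADAMTS4 gave -1.97 in slides 13 and 14 minus slide 2 and -0.79 in slide 24 minus slide 23, and its 3 probes ranged from -1.38 to 0.02, with 2 called. Of 11 endothelial markers 4 were higher (CDH5 at 0.77, TIE1 at 0.70, ESAM at 0.68 and KDR at 0.57) and 0 lower, with a median of 0.40. TIE1 gave 1.22 in slides 13 and 14 minus slide 2 and 0.19 in slide 24 minus slide 23. The list median went the other way, with 0.23 in slides 13 and 14 minus slide 2 and 0.61 in slide 24 minus slide 23. In the first contrast 2 members were higher and 2 lower, near the 15.9% and 19.8% of all probes, and in the second 5 were higher and 0 lower. Log2 of the summed level of the 11 markers was 4.72 to 5.33 in the arrays labelled Hereford and 4.27 to 4.93 in those labelled Angus, and its part in the difference of PCDH12 was not tested.

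Myofibre genes had small differences over the 16 arrays. All 14 measured skeletal myofibre markers had a positive difference, from 0.02 to 0.68, and 4 passed, the actin ACTA1 (0.37), the creatine kinase CKM (0.31), the fast troponin TNNT3 (0.68) and titin, TTN (0.28). Log2 of their summed level was 12.5 to 12.9 in the arrays labelled Hereford and 12.4 to 12.6 in those labelled Angus, and all 14 were above background on every array. In slides 13 and 14 minus slide 2, 7 of the 14 were higher, and in slide 24 minus slide 23, 0. The 5 probes of TNNT3 ranged from -0.06 to 0.68, with 1 called. The 4 probes of ACTA1 ranged from 0.13 to 0.37, the 3 of CKM from 0.17 to 0.345 and the 6 of TTN from 0.07 to 0.28, with 1 called for each gene. Slow myofibre genes had 0 of 12 calls, with differences from -0.48 to 0.94. In the fast list TNNT3 and MYOZ1, a Z-disc protein (0.22), were higher, of 12, with differences from -0.73 to 0.68, with 6 higher and 1 lower in slides 13 and 14 minus slide 2 and 0 higher and 2 lower in slide 24 minus slide 23. In glycolysis and glycogen, TPI1 (0.31) and PPP1R3C, a glycogen-targeting phosphatase subunit (1.33), were higher and LDHB (-0.60) and UGP2 (-0.39) lower, of 22. That list had 10 higher and 1 lower in slides 13 and 14 minus slide 2, with a median of 0.29, and 0 higher and 3 lower in slide 24 minus slide 23, with a median of -0.08, the 3 lower being near the 13% of all probes. For MYOZ1 and TPI1, 1 of 3 probes each was called. No ribosomal protein gene passed by its brightest probe, of 65. Protein breakdown had 1 of 26 lower, the proteasome subunit PSMB1 (-0.35). Heat shock and chaperones had 3 of 23 lower, HSPH1 (-0.76), HSPB3 (-0.58) and BAG3 (-0.43), and 0 higher, and the 3 probes of BAG3 ranged from -0.43 to 0.23.

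Several immune lists had medians that differed between the slide contrasts. Interferon-stimulated genes had 3 of 28 members higher over the 16 arrays, among them RSAD2, an antiviral enzyme (1.39, SE 0.30), and IFI44 (1.02, SE 0.30), and 0 lower, with a median of 0.42. When a gene was counted if any of its probes was called, 10 were higher and 0 lower. The share of all genes by that count was not computed. In slide 24 minus slide 23, 17 of the 28 were higher with a median of 0.99, whereas in slides 13 and 14 minus slide 2 only 2 were higher, with a median of 0.10, and IFI44 gave 1.68 and 0.37. Macrophage markers had 0 of 15 calls in the 16 arrays, but 4 lower with a median of -0.56 in slides 13 and 14 minus slide 2 and 4 higher with a median of 0.44 in slide 24 minus slide 23. Both counts lie above the shares of all probes called there, 19.8% lower and 15% higher, in a list of only 15 members. Complement and acute phase genes had CLU (-1.01) and CD55 (-0.86) lower of 18 over the 16 arrays. They had 13 lower and 1 higher in slides 13 and 14 minus slide 2, with a median of -0.83, and 3 higher and 0 lower in slide 24 minus slide 23, with a median of 0.33, the latter near the 15% of all probes called higher. T, B and gamma delta T cell markers had 0 of 19 calls, with medians of -0.39 and 0.28 in these contrasts. Antigen presentation had 2 of 21 higher, CD74 (0.76) and BOLA-DMB (0.54), and by any probe 5 higher and 0 lower. Among immediate early genes CCN1 (1.11), IER3 (0.92) and CCN2 (0.59) were higher and MAFF (-0.55) lower, of 21, with medians of 0.37 for slides 13 and 14 minus slide 2 and 0.49 for slide 24 minus slide 23. Smooth muscle markers had MYLK, the myosin light chain kinase, lower (-0.73) of 10. Schwann cell, tendon and erythroid markers had 0 calls of 11, 8 and 7 by their brightest probe. The median of the 11 Schwann cell markers was 0.49, with 9 positive and 2 negative. It was 0.08 in slides 13 and 14 minus slide 2, with 3 called higher and 0 lower, and 0.66 in slide 24 minus slide 23, with 0 called.

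**Figure D5:**
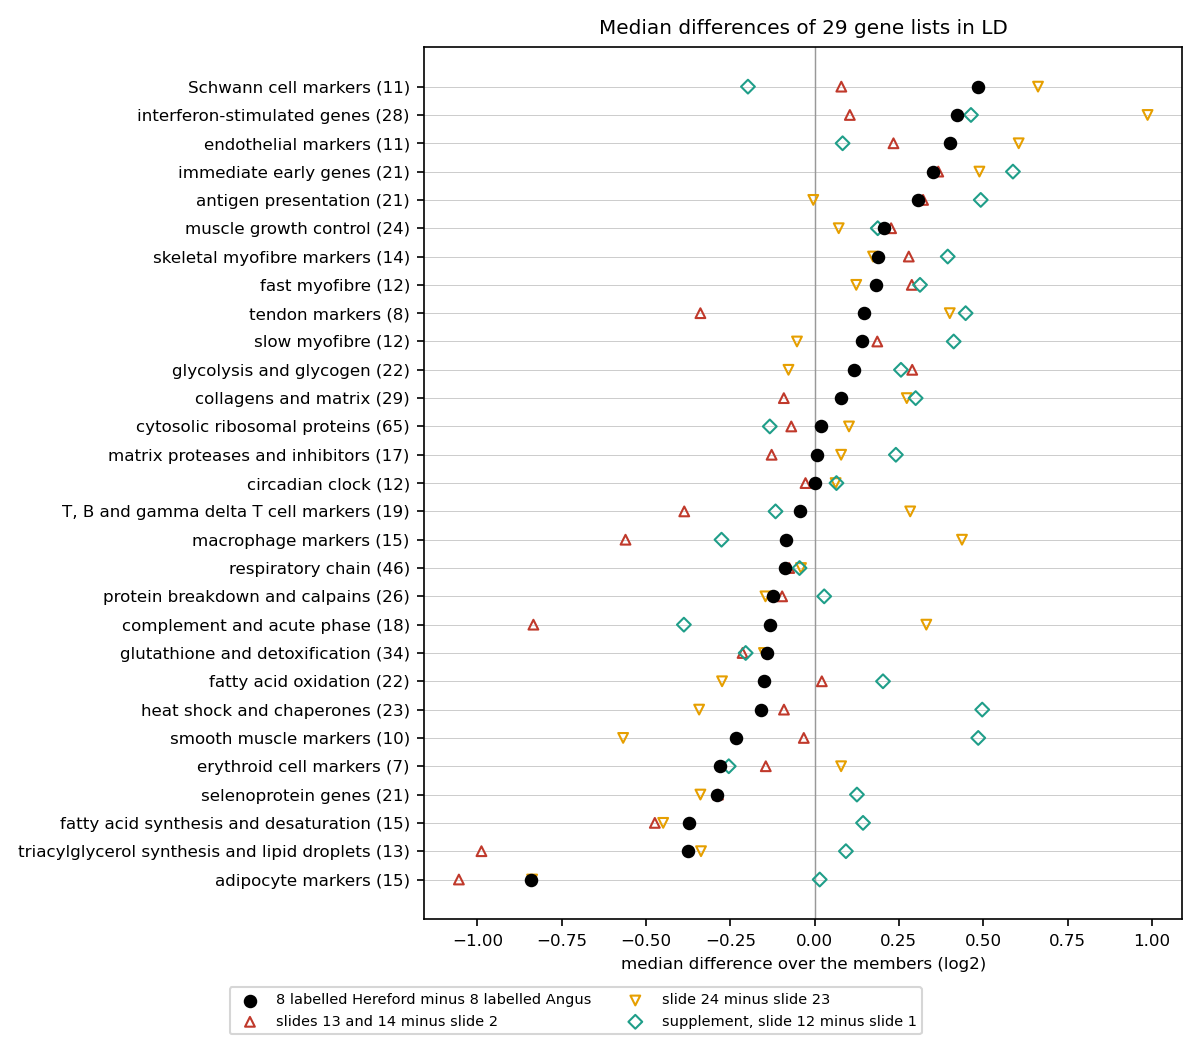
Median difference (log2) over the measured members, by their brightest probe, of 29 gene lists (number of members in parentheses) for the 8 arrays labelled Hereford minus the 8 labelled Angus (black), slides 13 and 14 minus slide 2, slide 24 minus slide 23, and the supplement arrays. Adipocyte markers lie lowest at -0.84 and at -1.06 and -0.84 in the slide contrasts, with the supplement contrast at 0.02, whereas macrophage markers lie at -0.56 and 0.44 in the slide contrasts.

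Detoxification genes completed the picture of the lower side. Of 34 measured members of glutathione and detoxification, 6 were lower and 1 higher, and those lower included GPX1 and GPX3 of the selenoprotein list. GSTT2, a theta class glutathione transferase, differed by -2.58 (SE 0.40) and GSTA2, an alpha class enzyme, by -2.21 (SE 0.50), at probes above background on 6 and 4 of the 8 arrays labelled Hereford. AKR1B1, an aldose reductase, was higher by 0.34. S100G, a calcium-binding protein, was lower with levels of -3.92, -3.10 and -1.18 against -1.15, 0.16 and 0.98, a difference of -2.97 (SE 0.37), and both of its probes were called. TF, the iron carrier transferrin, differed by -2.09 (SE 0.40), with 3 of 5 probes called.

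Of the 21 probes called with slide as a random block, 6 carried no gene name. The named ones not yet given were CDKN1A, the cell cycle inhibitor p21, SLC43A2, a neutral amino acid transporter, RPS6KA3, a ribosomal S6 kinase, HEXIM2, a repressor of transcription elongation, and COLEC12, a scavenger receptor. CDKN1A had levels of 1.23, 1.42 and 2.11 in the arrays labelled Hereford against 2.64, 3.09 and 3.49, a difference of -1.57 (SE 0.14, adjusted p with the block 0.0284), but its other probe gave -0.65 and did not pass with the block (adjusted p = 0.411). SLC43A2 differed by -1.78 (SE 0.13, adjusted p with the block 0.00212). RPS6KA3 differed by -1.22 and -1.20 at its 2 probes (SE 0.10 each) and HEXIM2 by -0.91 (SE 0.08), with -0.71 (adjusted p = 0.232) at its other probe, which was above background on 4 of the 8 arrays labelled Hereford. COLEC12 was the only one of these 5 to be higher, by 0.92 (SE 0.09). At the probes called with the block the 8 and 8 arrays did not overlap. The unnamed probes gave differences from -1.80 to 3.11.

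With supplement, the same breeds gave 6774 called probes (19.8%), 3689 higher (10.8%) and 3085 lower (9.01%) in the 4 arrays labelled Hereford, on slide 12, against the 4 labelled Angus, on slide 1. Breed and slide cannot be told apart there either. Centring each array on its mean turned the balance to 2967 higher and 3874 lower, and leaving out the Hereford array at position 2 of slide 12 gave 4130 calls. Of the 24 genes, 4 passed with supplement, H19 (1.14), TLE1 (0.74) and COL1A1 (1.63) with the sign of pasture and GPX1 (0.56) with the opposite sign. SELENOW ran from 2.44 to 3.36 in the supplement arrays labelled Angus and from 3.41 to 4.13 in those labelled Hereford, all between the groups on pasture, and the difference of 0.79 did not pass (adjusted p = 0.0522). The summed adipocyte markers were 5.004 to 5.59 and 4.73 to 5.40, below all arrays labelled Angus on pasture. The median of the adipocyte list was 0.02, with 2 members higher and 1 lower. The difference between the contrasts themselves was tested by an interaction term, which called 6652 probes (19.4%) and 3496 (10.2%) without slides 23 and 24. The 24 genes were chosen for their pasture differences, which enter the term, so their terms are a description: 17 lay past the threshold, and 19 without slides 23 and 24. For SELENOW the term was 3.86 (adjusted p = 3.19e-08), for CIDEC 3.82 (adjusted p = 0.00638) at the probe above background on all 16 arrays, for PER2 -2.02 (adjusted p = 0.0032) and for GATM -3.61 (adjusted p = 0.00179). For H19 it was -0.83 and did not pass (adjusted p = 0.157).

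In fat, where 0.307% of all probes passed over the 5 depots and 3014 had an unadjusted p under 0.05 in limma, 0 of the 24 genes passed, a count that says little at that share. Their differences ran from -0.76 (SE 0.26) for THRSP to 0.44 for PER2. SELENOW gave 0.06, FABP4 0.06 and NREP 0.28 there. Probes of one gene mostly moved together in LD. Of 1639 called probes from genes with several probes, 1359 (82.9%) had the sign of all other probes of the gene and 508 (31.0%) had all others called as well, while 8 genes had calls in both directions, COL1A1 among them.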

How the data were processed

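Total RNA of 96 bovine samples was hybridised by the authors to the 4x44K one colour Agilent array. The authors deposited scanner output, in which the processed signal is a background-subtracted intensity per spot with no scaling between arrays, and a table of log2 values per probe, which here chose the 34227 probes tested and served as an alternative. Log2 processed signals were set to the 75th percentile of each array, spots marked as outliers were left out and spots of a probe averaged. No spot was saturated (0 among non-control probes). Depth on an array is signal over background, and the number of arrays limits precision.

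Linear models (limma 3.58.1, lmFit with eBayes, 2-sided) were fitted in R 4.3.3 with the package data.table (version 1.17.8), with Benjamini-Hochberg adjustment over all 34227 probes, on the arrays of the groups compared, without covariates except depot in fat. Figures used Python 3.11.15, pandas 2.3.3, numpy 2.4.6 and matplotlib 3.10.9. The code was tested on simulated data. Names came from RefSeq accessions (19903 probes) and otherwise from the supplement of the study (1542 probes), for 10653 genes in all. The mixed model normalisation of the study was not repeated. Replicate numbers did not pair the arrays: deviations of same-numbered arrays correlated with r of -0.01 to 0.19.

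Genes were named by rule: the 12 highest and 12 lowest called differences without overlap and above background on all 8 arrays of 1 label, list members past the threshold (all where a list had at most 6, otherwise the 3 largest), and probes past the threshold with slide as a block. One gene that met the rule is not reported here. List members given beyond these, the selenoprotein list and the examples of the label check were chosen after their values were seen. Of a gene in a list, the brightest probe over the 16 arrays was counted. The comparison and the 28 other lists were chosen with earlier results of these data known. Alternatives covered scaling, background, source of values, probes, dim-probe filter, test, slide, scan day, replicate number, spread and left-out arrays. The splits without slides 23 and 24 and slide 24 against slide 23 were added after seeing the data.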

Additional observations from a re-analysis of the deposited data

Results flagged for a closer look

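The level of 1 array stood apart from the other 7 of its label by Dixon's criterion in 9 of 160 sets of 8 arrays, where chance gives about 1 in 20. In the arrays labelled Hereford these were slide 24 position 1, the highest for ELOVL6 (-3.05) and FASN (2.95), slide 24 position 4, the highest for LPIN1 (-0.53), slide 24 position 3, the highest for PSMB1 (5.42), and slide 24 position 2, the lowest for BHLHE41 (3.17). In the arrays labelled Angus they were slide 23 position 3, the highest for HADH (3.73) and the lowest for COL15A1 (-0.47), and slide 23 position 4, the lowest for TIMP2 (3.49) and ARNTL (-1.70).

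The breed contrast with supplement differed from that on pasture by the interaction term in 34 of the 80 probes examined, where 19.4% of all probes passed. These probes were chosen because they passed on the pasture arrays that enter the term, so the count is a description. Terms are the supplement contrast minus the pasture contrast on the log2 scale. Among genes of fat cells and lipid use the term was 5.03 and 3.82 for the probes of CIDEC, 4.23 for THRSP, 3.46 for ACSM1, 3.21 for TRARG1, 3.196 for FABP4, 2.56 for ELOVL6, 2.23 and 1.304 for the probes of DGAT2, 1.50 for FASN, 1.23 for LPIN1, 1.07 for UCP3 and 0.71 for CPT2. Among selenoprotein and detoxification genes it was 3.86 for SELENOW, 3.098 and 2.94 for the probes of GPX1 and 2.55 for GSTA2. In the clock the term was -2.02 for PER2, -1.05 for DBP and 1.88 for NFIL3. Other terms above 0 were 2.80 for S100G, 2.66 for TF, 2.07 for ADAMTS4, 1.52 for HSPH1, 1.37 for PRSS23, 1.19 for CLU, 1.17 for MYLK and 0.90 for BAG3. Terms below 0 were -3.61 for GATM, -1.92 for NREP, -1.85 for PHACTR3, -1.42 for MEGF10, -0.93 for COL15A1 and -0.57 for IGF1. Diet, slide and slaughter group cannot be told apart in these terms.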

How the results depend on the processing

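The count of 3104 called probes was 21 with slide as a random block, 5773 without slide 23, 12230 without slides 23 and 24, 9586 in slide 24 minus slide 23, 8594 with scan day as a block, 8056 within scan day 2, which holds slides 2 and 24, and 5468 of 43653 when all non-control probes were tested. With the replicate number as a block it was 2354, and this block ended no call among the 24 genes. Leaving out 1 array gave 2249 to 2970 on pasture and 4130 to 6684 of the 6774 with supplement, lowest without the Hereford array at position 2 of slide 12 (4130), position 3 of slide 12 (4153) and the Angus array at position 3 of slide 1 (4500). The interaction count of 6652 was 3496 without slides 23 and 24. Higher and lower calls were 1340 and 1764, 972 and 2291 with each array centred on its mean, 1566 and 1262 with the series matrix values and 3347 and 2121 with all non-control probes. With supplement they were 3689 and 3085, 2967 and 3874 centred on the mean and 4254 and 2242 with the matrix values. MYOZ1 changed sign under normexp background correction, to -0.0371 (adjusted p = 0.674). Among the 24 genes all calls held in every setting except the slide block, which kept 5, and for COL1A1 in slide 24 minus slide 23 and without slide 2 and TF within scan day 2. Of the 80 probes given for named genes by the rule on ranks and lists the slide block kept 6 and the replicate block 68. Of 1073 list medians recomputed, 23 moved by more than the spread between arrays. The cause of these shifts was not tested. Scan day and slide overlap, and with 4 arrays a slide a single unusual set of arrays can move any count.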
